A study of Homo sapiens with 6 samples.

Results

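The genes described here are 17 genes of S100 proteins, 12 genes of annexins, and S100PBP, whose protein binds S100P and is not itself an S100 protein. They were chosen by name: each probe that the platform annotation gives to 1 of these 30 symbols was taken, which gave 50 of the 47322 probes on the array and 30 of 20045 gene symbols. Expression was measured in H460, an established cell line from a human large cell carcinoma of the lung, in cells that crossed a filter coated with basement membrane extract (H-INV) and in those that remained on its upper side (L-INV), with 3 arrays each. Both groups are untreated cells of the same line. According to the sample labels the inserts had 8.0 μm pores, cells had 48 hours to pass and were selected over 6 rounds, and both subpopulations were kept in glucose-free RPMI-1640 with 10% serum and selected again every 6 passages (the study's methods give a longer time and fewer rounds). RNA came from 3 sets of cells for each subpopulation. The sources do not state that the sets were selected separately, and the p-values thus rest on the spread among these RNA samples, which may be technical.

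S100 proteins are small calcium sensors with a pair of EF-hand motifs that act mostly as dimers and dock onto other proteins when calcium rises. Annexins bind phospholipid membranes in the presence of calcium and take part in membrane repair, vesicle traffic and the link between membrane and actin. The families meet in defined complexes, of which S100A10 with annexin A2, S100A11 with annexin A1 and S100A6 with annexin A11 are the best known, and several of their members are widely used as markers of invasive or metastatic carcinoma cells.

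Values are log2 intensity after background correction and quantile normalization, and the brightest probe stands for a gene. A probe was called above background where its detection p against the negative controls of the array was under 0.01, and a gene was tested where such a probe was above background on 3 or more of the 6 arrays. The comparison is H-INV against L-INV with limma over 10279 genes. Adjusted p values are from limma with the Benjamini-Hochberg method unless a one-way test is named, and are called at 0.05. Between 16368 and 16985 probes were above background per array, and median intensities were 123 to 134. Arrays of the same subpopulation correlated at 0.995 to 0.996 over the genes tested and arrays of different subpopulations at 0.920 to 0.927, across genes, which are not independent replicates. All 6 arrays lay on 1 BeadChip, with the subpopulations at separate positions, so chip position and subpopulation cannot be told apart. Among markers of lung epithelium, KRT8, KRT18, KRT19, KRT7 and EPCAM were above background in at least 1 group, whereas CDH1, NKX2-1, SFTPB, SFTPC and NAPSA were not on any array. In bulk RNA, fewer cells that express a gene and less RNA of it per cell cannot be told apart.

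Before the values, the promoters of the members with the largest changes are shown, together with that of S100A10, the partner of annexin A2. Each line is the 250 bases before the outermost annotated start, in the direction of the gene, from RefSeq on GRCh38.p14: ANXA10 at chr4:168092287-168092536 on the plus strand, ANXA6 at chr5:151157780-151158029, S100A16 at chr1:153613138-153613387 and S100A10 at chr1:151993860-151994109, all 3 on the minus strand. Capitals mark a TATA box (TATAAA), an SP1 core (GGGCGG) or an E-box (CAGGTG) on either strand.
ANXA10 promoter: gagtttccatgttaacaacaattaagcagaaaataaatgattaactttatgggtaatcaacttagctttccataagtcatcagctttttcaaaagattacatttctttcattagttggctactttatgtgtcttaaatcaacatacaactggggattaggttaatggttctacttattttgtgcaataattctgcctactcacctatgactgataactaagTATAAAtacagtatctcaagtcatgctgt
ANXA6 promoter: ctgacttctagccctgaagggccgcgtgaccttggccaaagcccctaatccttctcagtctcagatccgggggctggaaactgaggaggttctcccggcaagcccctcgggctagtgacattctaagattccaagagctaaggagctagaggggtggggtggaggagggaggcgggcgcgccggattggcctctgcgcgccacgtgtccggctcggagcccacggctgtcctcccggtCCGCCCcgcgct
S100A16 promoter: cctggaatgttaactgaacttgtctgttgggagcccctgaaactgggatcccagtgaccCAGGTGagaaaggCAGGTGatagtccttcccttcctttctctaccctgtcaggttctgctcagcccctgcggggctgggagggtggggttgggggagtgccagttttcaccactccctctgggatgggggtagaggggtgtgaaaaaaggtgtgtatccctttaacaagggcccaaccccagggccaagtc
S100A10 promoter: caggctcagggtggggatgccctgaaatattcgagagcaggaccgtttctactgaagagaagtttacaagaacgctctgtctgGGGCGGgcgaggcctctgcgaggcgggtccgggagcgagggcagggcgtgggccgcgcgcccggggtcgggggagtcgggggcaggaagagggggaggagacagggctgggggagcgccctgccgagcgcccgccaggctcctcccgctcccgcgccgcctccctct

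The ANXA10 window is AT-rich, with 31.2% G and C, no CpG, and a TATAAA that begins 29 bases before the start. The ANXA6 window has 19 CpG and a GGGCGG on the opposite strand 12 bases before the start, and that of S100A10 has 24 CpG and a GGGCGG at 167 bases. S100A16 has 1 CpG and a pair of CAGGTG E-boxes, at 191 and 178 bases. Of the 30 members, 27 had an entry in the promoter table and ANXA8, ANXA13 and S100B had none. TATAAA on either strand was in 9 of these 27 windows and in 11.2% of 27305 gene promoters. It was found for S100A4, S100A7, S100A9, S100A12, S100P, ANXA1, ANXA2, ANXA10 and ANXA11. CAGGTG, the E-box that SNAI2 and related factors can bind, was in 9 of 27 windows and in 17.5% of all promoters. GGGCGG, the core of SP1 sites, was in 11 windows and in 42.2% of all promoters. The 19 members tested had a median of 15 CpG in the window (0 to 36) and the 8 members not tested with an entry had a median of 4 (1 to 6), against 10 over all genes. These letters are a description of the windows and no statement on any factor's binding.

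Of the 17 S100 genes, 9 were tested. S100A10, S100A11, S100A13 and S100A16 fell in H-INV cells, none rose, and S100A4, S100A6, S100A9, S100A14 and S100P did not pass the test. Over all 10279 genes tested 25.4% were lower and 32.6% higher at the same threshold, 58.0% in all. The median log2 fold change of the 9 S100 genes was -0.15, against 0.05 over all genes tested. Only S100A16 fell by more than 2-fold with an adjusted p under 0.05, a limit that 6.02% of all genes passed downwards.

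**Figure D1:**
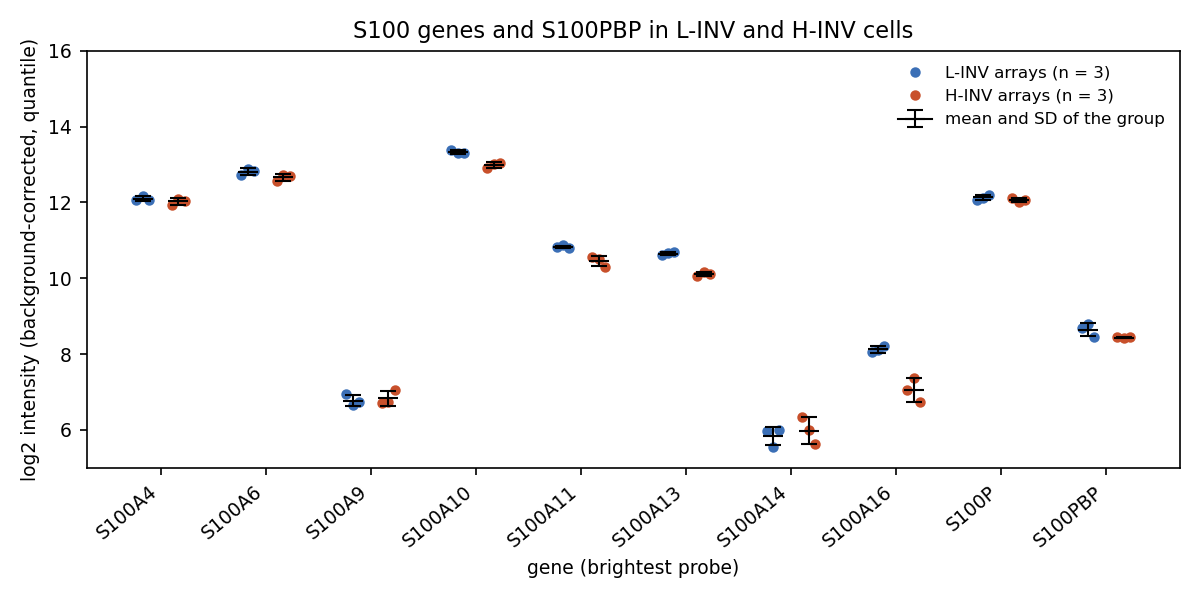
Log2 intensity (background-corrected, quantile normalized) of the 9 S100 genes tested and S100PBP, brightest probe, with a point for each of 3 L-INV arrays (blue) and 3 H-INV arrays (orange), and bars for the group mean and SD. The groups of S100A16, S100A13, S100A11 and S100A10 are apart, while those of S100A4, S100A9, S100A14 and S100P overlap.

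S100A16, a widely expressed S100 protein, read 8.05, 8.11 and 8.22 for L-INV and 7.04, 7.36 and 6.74 for H-INV of its only probe, ILMN_1728049. All H-INV arrays were below all L-INV arrays, and the H-INV arrays were further apart from each other (SD 0.312, n = 3) than the L-INV arrays (SD 0.0893, n = 3). The log2 fold change was -1.08 (standard error, SE, 0.14, 95% confidence interval -1.40 to -0.75, adjusted p = 0.000262). The call held under all 18 other settings, but the change stayed past 2-fold in 13 of them. It was -0.92 on the log2 scale without H-INV replicate 3, -0.95 from the authors' own table and -0.70 without background correction.

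S100A13, which takes part in the export of FGF1 and interleukin 1 alpha outside the classical secretory route, read 10.61, 10.66 and 10.69 for L-INV and 10.05, 10.16 and 10.10 for H-INV. The groups did not overlap, and the log2 fold change was -0.55 (SE 0.07, adjusted p = 0.000141). It is the member with the most probes, 6 in all, of which 3 were tested. Both of the others that were tested also fell, by 0.64 and 0.38 log2 units (adjusted p = 0.000909 and 0.0259 in the fit over probes). The dimmer of them was above background on 3 L-INV arrays and 1 H-INV array.

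S100A10 (p11), the light chain of the annexin A2 complex, which has lost calcium binding and is held in its active shape, read 13.39, 13.31 and 13.30 for L-INV and 12.91, 13.02 and 13.03 for H-INV. Every H-INV array lay below every L-INV array by its brightest probe (log2 fold change -0.34, standard error 0.07, adjusted p = 0.00272). Its other probe fell more, from 12.95, 12.97 and 12.99 to 12.44, 12.35 and 12.49 (log2 fold change -0.54, adjusted p = 0.000219 in the fit over probes). S100A11 (calgizzarin), the usual partner of annexin A1, read 10.82, 10.87 and 10.80 against 10.55, 10.52 and 10.31. Again the groups were apart, with a log2 fold change of -0.37 (SE 0.08, adjusted p = 0.00433). The call was lost only when the study's processing was rebuilt from its methods (adjusted p = 0.0504 from the one-way test named there). This rebuild took the authors' table, no detection filter and, for each gene, the probe with the smallest p. The methods state neither a detection filter nor the choice of a probe, so the rebuild may differ from the study's own processing.

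The S100 genes best known from invasive tumours did not pass the test. S100A4, called metastasin for its part in metastasis in mice and a regulator of non-muscle myosin IIA, read 12.06, 12.17 and 12.07 in L-INV cells and 11.94, 12.10 and 12.04 in H-INV cells, with overlapping groups. Its log2 fold change was -0.07 (95% confidence interval -0.24 to 0.10, adjusted p = 0.431), and its other probe had -0.06 (adjusted p = 0.476). S100P, which binds ezrin and the receptor AGER, read 12.08, 12.12 and 12.20 against 12.12, 12.01 and 12.07, a log2 fold change of -0.07 (95% confidence interval -0.22 to 0.09, adjusted p = 0.439). The intervals of both genes leave out a change of 2-fold in either direction. S100A6 (calcyclin) read 12.72, 12.88 and 12.84 against 12.56, 12.72 and 12.70, so that the lowest L-INV array and the highest H-INV array almost touched. Its log2 fold change was -0.15 (95% confidence interval -0.33 to 0.02, adjusted p = 0.116). It was called lower with a trended prior (adjusted p = 0.0271) and without background correction (adjusted p = 0.0379), and not under the other 16 settings.

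S100A8 and S100A9 form calprotectin, an abundant protein of neutrophils and monocytes. S100A9 read 6.94, 6.66 and 6.73 in L-INV cells and 6.72, 6.73 and 7.05 in H-INV cells, with overlapping groups (log2 fold change 0.06, 95% confidence interval -0.20 to 0.31, adjusted p = 0.697). S100A8 read 5.20, 5.63 and 5.51 against 4.57, 4.69 and 4.53. It exceeded background on only 2 arrays, both of L-INV, so it was not among the genes tested. Its L-INV mean did not exceed the lowest signal above background, so no bound can be given. Settings without the detection filter did test S100A8 and called it lower. The log2 fold change was -0.85 with the filter left out (adjusted p = 0.00101 from limma). In the rebuilt processing of the study it was -0.66 (adjusted p = 0.0224 from the one-way test). Of 8 leukocyte markers with a probe, only CD14 was above background on any array. The summed linear level of this list was 325 to 350 in L-INV cells and 222 to 243 in H-INV cells. Like the other summed levels below, it includes the readings of probes not above background. CD14 had a mean log2 intensity of 7.23 in L-INV and 5.72 in H-INV cells. PTPRC, the common leukocyte antigen, was not above background on any array. The part of these markers in the calprotectin values was not tested.

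S100A14, a cytoplasmic S100 protein of epithelia, was close to background, at 5.98, 5.56 and 5.99 in L-INV cells and 6.33, 6.00 and 5.62 in H-INV cells. The groups overlapped and the interval was wide (log2 fold change 0.14, 95% confidence interval -0.28 to 0.56, adjusted p = 0.548). S100PBP had 8.69, 8.80 and 8.45 against 8.44, 8.41 and 8.45 (log2 fold change -0.21, adjusted p = 0.0837). Its probes did not run one way: the next in brightness had -0.11 (adjusted p = 0.414) and the dimmest 0.19 (adjusted p = 0.0705). Without L-INV replicate 3, its lowest L-INV array, S100PBP was called lower (log2 fold change -0.31, adjusted p = 0.00865), as it was without background correction (adjusted p = 0.0302) and with a trended prior (adjusted p = 0.0390).

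The probes of the remaining 7 S100 genes were not above background on any array. These were S100A1, known from heart muscle, S100A2 and S100A7 (psoriasin) of stratified epithelium, S100A3 of hair cuticle, S100A5, S100A12 of neutrophils and S100B of glia and melanocytes. Each has 1 probe, and the lowest detection p among the 6 arrays ran from 0.0234 for S100A1 to 0.395 for S100A7.

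Of the 12 annexin genes, 9 were tested, and unlike for the S100 genes the calls went both ways: ANXA3, ANXA6 and ANXA11 rose, ANXA4, ANXA7 and ANXA10 fell, and ANXA1, ANXA2 and ANXA5 did not pass the test. The share called, 66.7%, stood beside 58.0% over all genes tested (32.6% higher and 25.4% lower). Whether the families differ in direction was not tested. The median log2 fold change of the 9 annexins was 0.01 and the median size of the change 0.30, against 0.29 over all genes tested. ANXA6 passed 2-fold upwards, as did 4.22% of all genes tested, and ANXA10 downwards. In either direction 10.2% of all genes passed this limit.

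**Figure D2:**
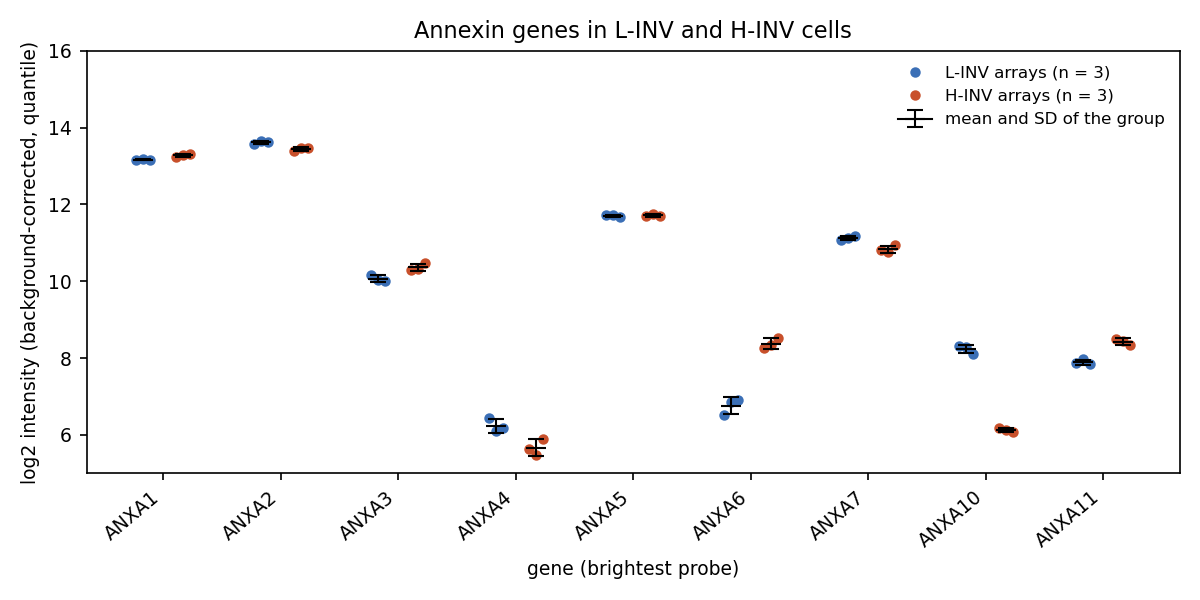
Log2 intensity (background-corrected, quantile normalized) of the 9 annexin genes tested, brightest probe, with a point for each of 3 L-INV arrays (blue) and 3 H-INV arrays (orange), and bars for the group mean and SD. ANXA10 drops from about 8.23 to 6.13 and ANXA6 climbs from 6.76 to 8.37, whereas the ANXA5 groups lie on top of each other.

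ANXA10, an annexin of gastric epithelium, had the largest change of all members. It read 8.31, 8.29 and 8.10 for L-INV and 6.17, 6.14 and 6.08 for H-INV of its only probe, ILMN_1699421. The gap between the groups was far wider than the spread within them (SD 0.111 and 0.0444, n = 3 each). ANXA10 fell by 2.10 log2 units (SE 0.08, 95% confidence interval -2.28 to -1.93, adjusted p = 1.03e-07), which is 4.30-fold, and none of the 3 H-INV arrays lost it to background. Without background correction the log2 fold change was -1.23.

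ANXA6, in which the annexin core is duplicated and which acts as a scaffold for Ras and EGFR signalling at the plasma membrane, moved the other way. It read 6.51, 6.87 and 6.90 in L-INV cells and 8.26, 8.33 and 8.53 in H-INV cells on its only probe, ILMN_1678612. No H-INV array came near an L-INV array, and ANXA6 rose by 1.61 log2 units (SE 0.12, 95% confidence interval 1.34 to 1.89, adjusted p = 8.14e-06), which is 3.06-fold. It and ANXA10 remained past 2-fold under all 18 other settings, with a log2 fold change of 1.05 for ANXA6 without background correction.

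The remaining calls were smaller than 2-fold. ANXA11, which tethers RNA granules to lysosomes and binds S100A6, read 7.86, 7.96 and 7.84 in L-INV cells and 8.51, 8.43 and 8.33 in H-INV cells. It rose by 0.54 log2 units (SE 0.07, adjusted p = 0.000329), and the groups were apart. The next probe in brightness rose by 0.36 (adjusted p = 0.0195) and the dimmest had -0.02 (adjusted p = 0.917), so the mean of its probes gave 0.29 (adjusted p = 0.0131). ANXA3 read 10.17, 10.02 and 10.00 against 10.29, 10.33 and 10.47. Its rise of 0.30 on the log2 scale (SE 0.08, adjusted p = 0.0118) was larger than the spread of either group (SD 0.0920 and 0.0947, n = 3 each). It was not called in the rebuilt processing of the study (adjusted p = 0.0785 from the one-way test).

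ANXA4, an annexin of secretory epithelia, read 6.43, 6.10 and 6.17 in L-INV cells and 5.63, 5.47 and 5.90 in H-INV cells, the last values being close to background. It fell by 0.56 log2 units (SE 0.13, adjusted p = 0.00499). Its size depended on the treatment of background, at -0.36 with an offset of 50 and -0.21 without background correction. The call was lost in the rebuilt processing of the study (adjusted p = 0.101 from the one-way test). ANXA7 (synexin), which promotes fusion of membranes, read 11.07, 11.13 and 11.18 against 10.81, 10.76 and 10.93. It fell by 0.30 log2 units (SE 0.07, adjusted p = 0.00829), and its other probe was not above background on any array.

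ANXA2 has 3 probes, and they gave different answers. The brightest read 13.56, 13.64 and 13.63 in L-INV cells and 13.39, 13.48 and 13.46 in H-INV cells. These groups did not overlap, but the log2 fold change of -0.17 (SE 0.06, 95% confidence interval -0.32 to -0.02) missed the threshold with an adjusted p of 0.0529. The next in brightness read 12.01, 12.09 and 12.19 against 11.68, 11.51 and 11.35, and the dimmest 8.80, 8.84 and 8.97 against 8.38, 8.23 and 8.18. Both fell, by 0.59 and 0.60 log2 units (adjusted p = 0.00106 and 0.000339 in the fit over probes). ANXA2 was called lower under 9 of the 18 other settings, and its adjusted p ran from 0.000339 to 0.321. With the mean of its probes the log2 fold change was -0.45 (adjusted p = 0.000727). The scanner intensity of the brightest probe reached 13027, where the highest probe of each array read 17526 to 18361. The genome holds processed copies of ANXA2 with near-identical sequence, so signal of the probes may be shared with them.

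ANXA1, an anti-inflammatory annexin that acts on formyl peptide receptors, read 13.16, 13.18 and 13.15 against 13.23, 13.30 and 13.30. The groups were apart but close (log2 fold change 0.12, 95% confidence interval -0.03 to 0.26, adjusted p = 0.144). It was called higher with a trended prior (adjusted p = 0.0496) and by the methods' one-way test (adjusted p = 0.0213). The rebuilt processing of the study also called it higher (adjusted p = 0.0462 from the one-way test). ANXA5, the phosphatidylserine-binding protein used to stain dying cells, read 11.71, 11.72 and 11.68 against 11.69, 11.75 and 11.71. The groups overlapped, and the confidence interval of its log2 fold change of 0.01 ran from -0.13 to 0.16 (adjusted p = 0.865). ANXA8, with 5 probes, ANXA9, with 1, and ANXA13, an intestinal annexin with 3, were not above background on any array.

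**Figure D3:**
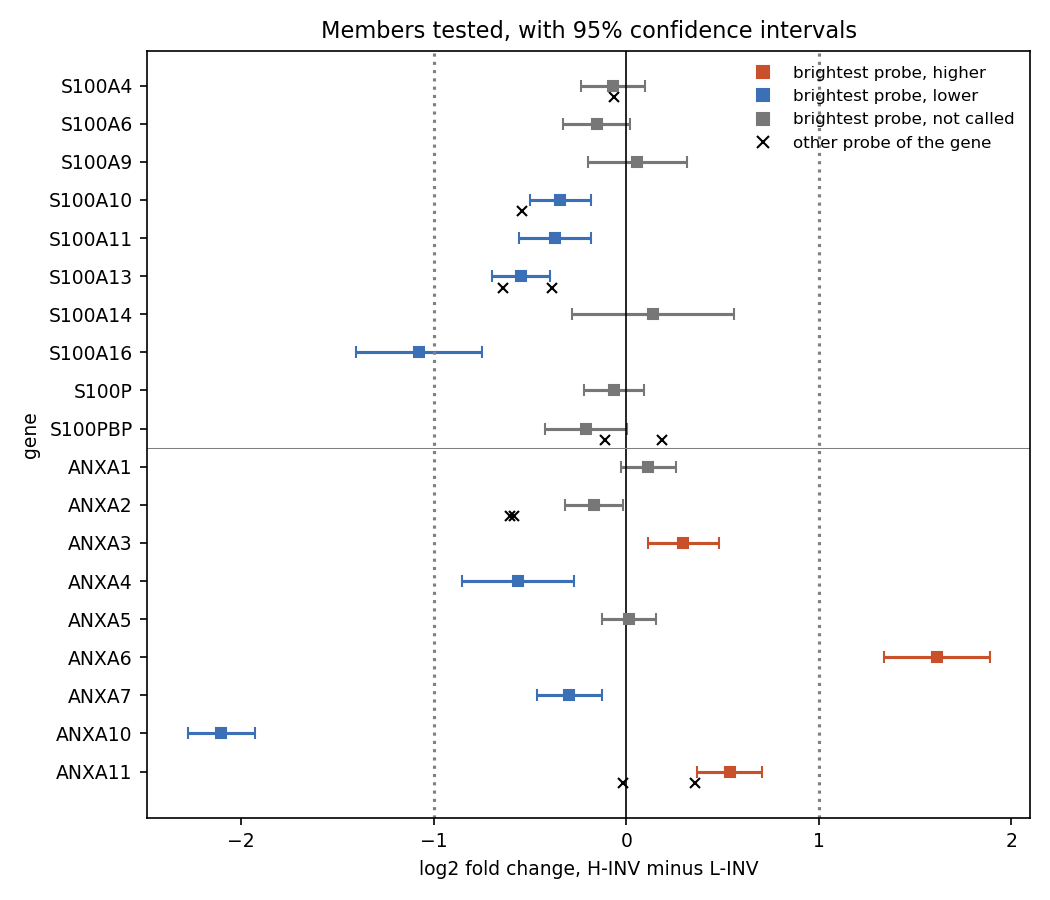
Log2 fold change (H-INV minus L-INV) of the 19 members tested, with limma's 95% confidence interval for the brightest probe (squares, coloured by call) and the values of other probes tested (crosses). Dotted lines mark 2-fold. ANXA10 and ANXA6 lie past 2-fold with their whole intervals, S100A16 with its estimate only, and the crosses of ANXA2 lie left of its interval.

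Over both families and S100PBP, 19 of 30 members were tested, of which 3 rose, 7 fell and 9 did not pass, where 58.0% of all genes tested were called. The groups did not overlap in 13 of these 19 members (5 S100 genes and 8 annexins), as in 64.5% of all genes tested. At the level of probes, 29 of 50 were tested and 16 of them called, where 56.6% of all probes tested were called. Of 10 further probes of the members tested, 7 had the call of the brightest probe, 3 another call, and none the opposite call. The SD within a group of 3 arrays ran from 0.0133 to 0.357 among the members tested. 

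The known complexes can be read side by side. For S100A10 and ANXA2, the light and heavy chain of the heterotetramer, the log2 fold changes were -0.34 and -0.54 for the probes of S100A10 and -0.17, -0.59 and -0.60 for those of ANXA2. AHNAK, a giant scaffold protein that binds this complex, fell by 0.54 (adjusted p = 0.000793). By the brightest probes they were -0.37 and 0.12 for S100A11 and ANXA1, and -0.15 and 0.54 for S100A6 and ANXA11. By these probes annexin and S100 gene differed in sign in both pairs, although ANXA1 and S100A6 were not called. The other probes of ANXA11 had 0.36 and -0.02, the last with the sign of S100A6. MYH9, the heavy chain of non-muscle myosin IIA to which S100A4 binds, fell by 0.26 log2 units (adjusted p = 0.0214), while MYH10, the heavy chain of non-muscle myosin IIB, rose by 0.82 (adjusted p = 2.51e-05). CACYBP, which binds S100A6, had 0.13 (adjusted p = 0.259). SYT1, the synaptotagmin found with S100A13 in the FGF1 export complex, read 7.62, 7.57 and 7.49 in L-INV cells and 5.08, 5.53 and 5.34 in H-INV cells, where only 1 array was above background, and was called lower (adjusted p = 6.84e-07). SRI and PDCD6, EF-hand partners of annexin A7 and annexin A11, fell by 0.33 and 0.31 (adjusted p = 0.0131 and 0.00299). AHNAK, MYH9, MYH10, CACYBP, SRI and PDCD6 were named after their values were seen.

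The wider list of partners held 55 genes of receptors, plasminogen activation, membrane repair and cytoskeleton, of which 39 were tested. Of these 10 rose, 21 fell and 8 did not pass, so that 79.5% were called, where 58.0% of all genes were. The median log2 fold change of the list was -0.31. CAV1, the caveolar coat protein, fell by 2.97 log2 units, from 10.83, 10.64 and 10.67 to 7.64, 7.77 and 7.82 (adjusted p = 1.66e-08). GCA (grancalcin), an EF-hand protein of the penta-EF-hand family, rose by 2.85, from 5.99, 6.07 and 5.80 to 8.76, 8.78 and 8.88 (adjusted p = 3.13e-08). PLA2G4A, the cytosolic phospholipase A2 that annexin A1 and S100A10 can inhibit, fell by 2.46, from 8.37, 8.32 and 8.20 to 5.36, 6.14 and 6.01 (adjusted p = 7.67e-06). In each of these genes the groups were far apart, and PLA2G4A was above background on 2 of the 3 H-INV arrays.

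Of the plasminogen system, in which S100A10 on the cell surface serves as a receptor, PLAUR, the urokinase receptor, fell by 1.59 log2 units (adjusted p = 1.85e-07). PLGRKT, another plasminogen receptor, fell by 0.87 (adjusted p = 1.34e-05). The activators moved the other way: PLAT rose by 0.76 (adjusted p = 0.000703) and PLAU by 0.27 (adjusted p = 0.0137). EZR, the membrane-actin linker ezrin that binds S100P, fell by 1.29, from 13.01, 12.94 and 12.80 to 11.61, 11.58 and 11.67 (adjusted p = 1.85e-06), and CD68, a lysosomal glycoprotein of phagocytes and other cells, fell by 1.41 (adjusted p = 9.41e-07). Of the receptors of extracellular S100 proteins and annexin A1, AGER, TLR4, FPR1, FPR2, FPR3 and EMB had no probe above background. BSG (basigin) and ALCAM, which bind S100A9, fell by 0.39 and 0.86 log2 units (adjusted p = 0.000874 and 0.000186). CD36, a scavenger receptor, was detected in L-INV cells alone (3 arrays) and fell at least 1.15-fold (adjusted p = 5.39e-06). It passed the detection filter through these arrays alone, so its direction, counted among the partners that fell, was fixed by the filter. PLGRKT, PLAT, PLAU and these receptors were named after their values were seen.

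For comparison, 43 genes of other calcium sensors (calmodulins, reticulocalbins, neuronal sensors, synaptotagmins, copines and myosin light chains) were set beside both families. Of 26 tested, 5 rose, 7 fell and 14 did not pass, and the median log2 fold change was -0.04. The share called was 46.2%, where 58.0% of all genes tested were called (32.6% higher and 25.4% lower, median 0.05). SYT11, among those that rose, passed the detection filter through the H-INV arrays alone, and SYTL2, among those that fell, through the L-INV arrays alone. Their direction was thus fixed by the filter. SYT11 was named after its values were seen. The 5 higher calls became 2 to 3 when any 1 array was left out. The detection limit of 3 arrays was kept in these runs and was thus stricter, and 25 genes of the list were tested in each. For SYTL2, a synaptotagmin-like protein of vesicle traffic, the brightest probe passed the detection limit on all 3 L-INV arrays but on none of the H-INV arrays, where its signal was at least 19.3-fold lower (adjusted p = 6.28e-10). Another, dim probe of SYTL2 was above background on 1 H-INV array, so the bound holds for that probe and not for the gene as a whole. For the bound, each H-INV array was given its own reading or, where larger, the dimmest reading that still counted as above background there. CALU (calumenin), an EF-hand protein of the secretory pathway, fell by 1.15 (adjusted p = 1.79e-06), and CIB2, a calcium- and integrin-binding protein, rose by 1.09 (adjusted p = 2.12e-05).

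Most S100A genes lie side by side on chromosome 1, together with genes of the epidermal differentiation complex. In the gene order of GRCh38.p14, the 8 S100A genes tested were set beside 55 neighbours that were also tested. These start within the span of the listed S100A genes or are the nearest 25 on either side. Genes of the region whose probes did not pass the detection filter were left out. Of these neighbours 24 fell, 7 rose and 24 did not pass (56.4% called), and their median log2 fold change was -0.18. Over all genes tested 58.0% were called, 25.4% lower and 32.6% higher, with a median of 0.05. Of the 8 S100A genes 4 fell and 4 did not pass, with a median of -0.25. By side, 11 of 25 neighbours fell and 1 rose before the cluster, and 8 of 25 fell and 6 rose after it. Among the neighbours that fell, SPRR2D, SPRR2A and SPRR2F passed the detection filter through the L-INV arrays alone, so their direction was fixed by the filter. Among those that rose, the same holds for CFAP141 through the H-INV arrays alone. CFAP141 was named after its values were seen.

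**Figure D4:**
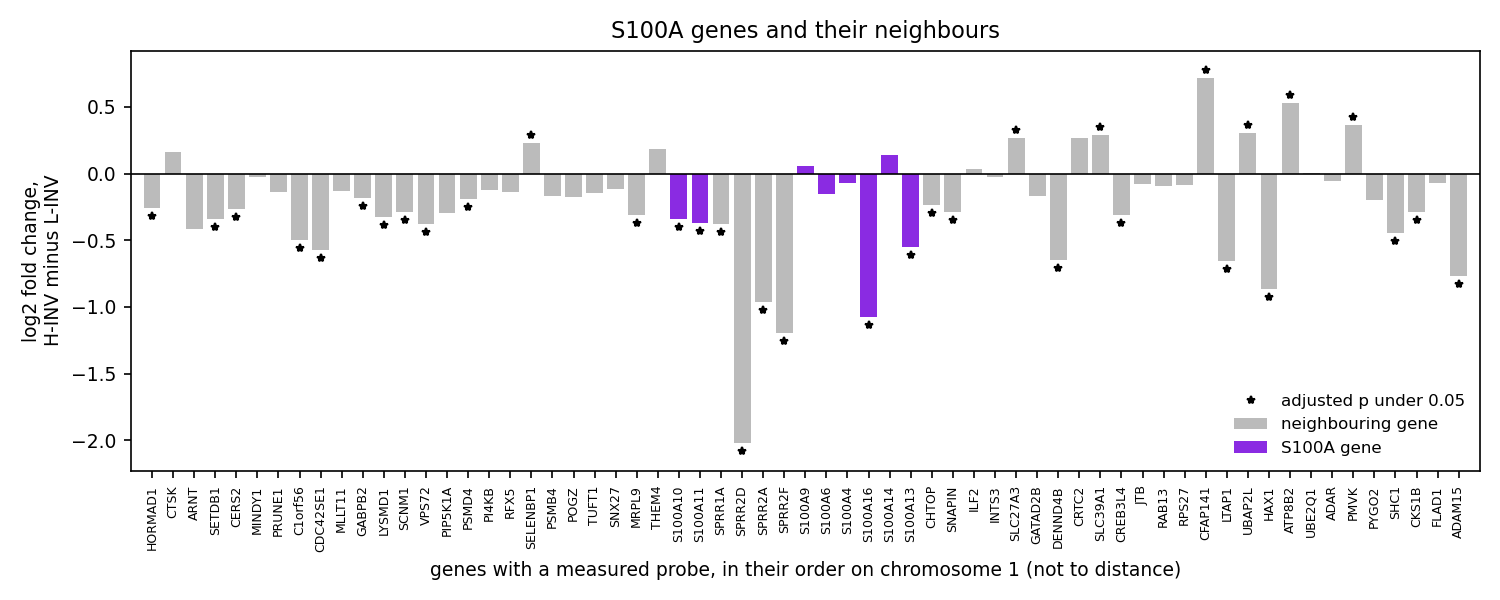
Log2 fold change (H-INV minus L-INV) of the 8 S100A genes tested (purple) and 55 neighbours (grey) in their order on chromosome 1, evenly spaced and not to distance, with stars for an adjusted p under 0.05. Bars point down for most genes before and within the cluster, with SPRR2D lowest, and in both directions after it.

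Among the neighbours, the small proline-rich genes of the cornified envelope lie inside the cluster, between S100A11 and S100A9. SPRR2D read 6.51, 6.83 and 6.80 in L-INV cells and did not reach the detection limit in H-INV cells, where it was at least 2.40-fold lower (adjusted p = 2.46e-06). SPRR2F and SPRR2A were likewise seen on the 3 L-INV arrays alone and fell at least 1.22-fold and 1.17-fold (adjusted p = 4.45e-05 and 0.00344). As the filter fixed the direction of SPRR2D, SPRR2F and SPRR2A, their adjusted p values are no separate support for a fall. The SPRR2 genes are near-identical copies, so their probes may share signal. HAX1, an anti-apoptotic protein encoded after the cluster, fell by 0.86 log2 units (adjusted p = 1.38e-05). Of 8 markers of stratified epithelium with a probe, 2 were above background on any array, and the summed level of this list was 333 to 358 in L-INV cells and 278 to 323 in H-INV cells. The summed level of 10 lung epithelial markers was 7892 to 7985 in L-INV cells and 2121 to 2177 in H-INV cells. Its members did not move together: KRT19 fell by 4.12 log2 units and KRT8 by 0.30 (adjusted p = 6.66e-10 and 0.00295). KRT18 was not called (adjusted p = 0.0624), and KRT7 rose by 1.09 (adjusted p = 1.51e-05). EPCAM fell at least 1.90-fold (adjusted p = 1.69e-05), but it passed the filter through the L-INV arrays alone, which fixed its direction. KRT19, with a mean of 12.50 in L-INV and 8.38 in H-INV cells, weighs most in the drop of this linear sum. The sum over 7 fibroblast markers was 764 to 815 in L-INV cells and 1361 to 1710 in H-INV cells, and COL3A1, which rose by 1.12 log2 units (adjusted p = 2.64e-05), was the only gene of that list tested. KRT5, KRT14, IVL and LORICRIN of the stratified list and DCN and LUM of the fibroblast list were not above background on any array. The part of these lists in the values of the members was not tested.

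**Figure D5:**
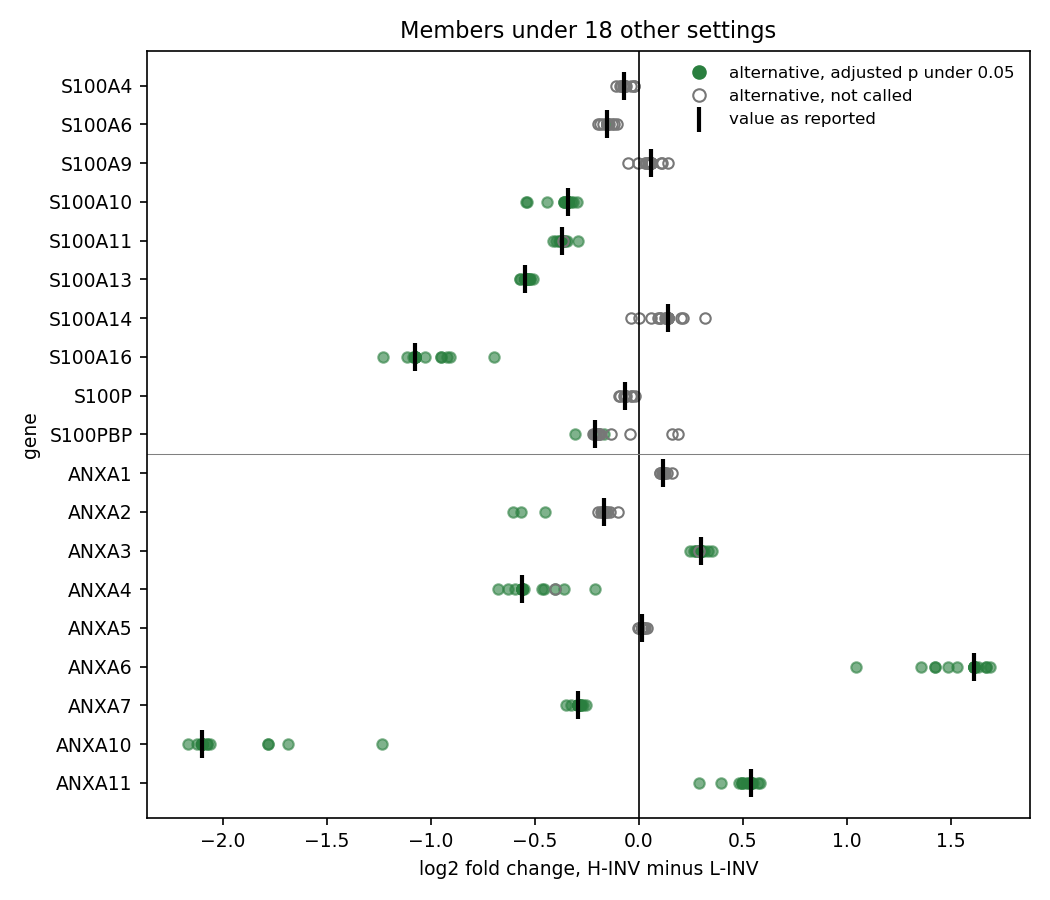
Log2 fold change (H-INV minus L-INV) of the 19 members tested under 18 other settings of the processing, filled green where the adjusted p was under 0.05 and open where not. A black bar marks the value given in the text. The points of S100A10, S100A13, S100A16, ANXA6, ANXA7, ANXA10 and ANXA11 are all filled, and those of ANXA2 lie apart where another probe or the mean of its probes was used.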

How the data were processed

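Total RNA of H460 L-INV and H-INV cells (3 arrays each) was hybridized to Illumina HumanHT-12 v4 BeadChips. The authors exported the scanner table with GenomeStudio (submitters' processing notes, which also name Partek). Its deposited values are linear probe intensity as scanned, without background subtraction or normalization, and each probe has a deposited detection p-value. In the other deposited table the authors had subtracted background and quantile normalized the intensity (47320 probes). It served as an alternative, with 40 added before log2.

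The tools were R 4.3.3 and limma 3.58.1. The normexp correction, with background levels inferred from the detection p and an offset of 16, was followed by quantile normalization and log2. A detection p under 0.01 on at least 3 arrays kept 16941 probes. Of all probes, 30111 had 1 gene symbol, 8 several and 17203 none in the annotation used here. There, 30072 Entrez IDs matched the GRCh38.p14 gene table. The brightest probe stood for a gene (10279 genes), and lmFit and eBayes were applied, two-sided, with Benjamini-Hochberg adjustment over all genes tested. Single probes were adjusted in a fit over all probes tested. The fits were tested on simulated data. Precision is limited by the number of arrays, and standard errors had a median of 0.0824 log2 units.

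The members and lists were chosen with earlier results of these data known. Values on every array are given for the members tested. Of the partners, other sensors and neighbours, the 6, 4 and 4 with the largest called change are named, and further genes are marked as named after their values were seen. The settings varied were the table used, the test (the methods' one-way ANOVA), the whole processing of the study as rebuilt from its methods, and other background, scaling, filter, probe and prior settings. The replicate number as a block and each array left out were also tried.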

Additional observations from a re-analysis of the deposited data

How the results depend on the processing

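Each result was recomputed under 18 other settings, 12 of the processing and 6 that leave out 1 array. The settings that gave the values above are called the main settings here. Of the counts of calls over the lists and over all genes, 220 stayed within 1.5 times the count with the main settings and 14 did not. Of the values of single members, 315 kept their direction and side of the threshold, 17 gained a call, 3 lost one and 7 turned sign. The count of genes past 2-fold was 1053 with the main settings, which is not the study's own count. It was 467 where background was not corrected, 691 at offset 50, and 639 with detection required on all 6 arrays. The study's own pipeline, as reconstructed, called 3 neighbours of the S100A genes higher and 13 lower. Other calcium sensors called higher were 5 with the main settings. They were 3 by one-way ANOVA, 3 with detection on all 6 arrays, and 3 with the replicate number as a block. With an array left out and the detection limit of 3 arrays kept, they were 2 to 3. Signs turned only for members that were not called: S100A9 to -0.00363 without L-INV replicate 2 and -0.0508 without H-INV replicate 3 (range with an array left out up to 0.138), S100A14 to -0.00170 without L-INV replicate 2 and -0.0370 without H-INV replicate 1 (up to 0.318), ANXA5 to -0.00342 without H-INV replicate 2 (up to 0.0274), and S100PBP, by another of its probes, to 0.157 in the study's own pipeline and 0.186 with the probe of smallest p. The causes were not tested. Samples with the same replicate number did not deviate together from their group means (correlations -0.0665, -0.0194 and -0.0926 over genes). With 3 arrays per group this cannot settle whether sets of the same number were handled together, which the sources do not state. The block changed no call of a member. Values near background limit what can be said of S100A8, S100A14 and ANXA4. The BeadChip as a block was not run, since all arrays share 1.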

Other observations

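Relatives of both families outside the chosen list were read as well. ANXA2P2, a processed copy of ANXA2, had a log2 intensity of 13.50 ± 0.0890 in L-INV and 13.53 ± 0.0221 in H-INV cells (mean ± SD of 3 arrays), so that the difference was 0.04 (adjusted p = 0.695 from limma over probes). The probes of ANXA2P1, another such copy, fell by 0.46 and 0.37 log2 units (adjusted p = 0.00810 and 0.0214), and that of ANXA2P3 by 0.63 (adjusted p = 0.0111). ANXA2R, a membrane protein that binds annexin A2, differed by 0.08 log2 units (adjusted p = 0.358). The probes of ANXA8L1, S100A7A, S100A7L2, S100G and S100Z were not above background on any array.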
